A study of Mus musculus with 12 samples.

Results

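Cluster 23 is a small group of lymphoid cells from mouse MC38 colon carcinomas, made up of every cell that carried the number 23 in the cluster column deposited with the counts. It held 212 of 93126 cells (0.228%) and 1.85% of the 11486 cells of the 8 clusters compared here as lymphoid (1, 3, 7, 8, 10, 13, 23 and 24). Cd4 or Cd8 transcripts were detected in few of its cells, although Cd4 was about as rare in some T cell clusters. A part of the cells had genes of group 2 innate lymphoid cells (ILC2) and a part genes of the interleukin-17-linked (type 17) program. The type 17 part and the remainder carried most of the T cell receptor transcripts. The receptor genes of the ILC2 and type 17 parts were found in different cells. None of the 68 cells with a UMI of Il1rl1 had one of Il23r or Il1r1. A UMI (unique molecular identifier) is the tag that lets each captured transcript be counted once.

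The tumors were grown under the skin of female mice aged 8 to 12 weeks, either C57BL/6J (B6) or F1 animals of B6 and a strain of the Collaborative Cross (CC), a panel of inbred mouse strains bred from several founders. Hosts were given 1 injection of 200 µg, either of anti-PD-1 (aPD1) or of an isotype control, and tumors were taken 48 h later. Frozen and dissociated tumors were sorted to 90% CD45-positive and 10% CD45-negative cells, marked with hashtag antibodies, and pooled with 4 specimens in each of 12 libraries. CC001F1, CC002F1 and CC075F1 hosts, classed by the study as responders to aPD1 from tumor growth, gave 10 isotype and 10 aPD1 tumors; CC036F1, CC079F1 and CC080F1 hosts, classed as non-responders, gave 9 and 9; B6 and CC007F1 hosts, in no class here, gave 5 and 5. The tumor (1 specimen of 1 pool) was the replicate, and no hashtag was used for both treatments, so that hashtag and treatment cannot be told apart.

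Cluster 23 cells were shallow. They held a median of 1343 UMIs (549 to 6020) and 781.5 genes per cell, against medians of 1347 to 4577.5 UMIs in the other 7 lymphoid clusters, and 322379 UMIs in all. One UMI was therefore worth 3.10 CPM (a cluster's summed counts scaled to a total of 1000000) in cluster 23, and 3 UMIs, taken as the floor of detection, were worth 9.31 CPM. Intervals below are exact 95% intervals and cover counting error only. Of the 48 tumors, 45 held a cluster 23 cell, 19 held at least 5, 4 at least 10, and none more than 20. Cell barcodes were shared between libraries by 23 of the 212 cells, and no 2 cluster 23 cells shared one.

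Innate lymphoid cells lack rearranged antigen receptors and live on interleukin-7, whose receptor chain is Il7r. ILC2 depend on the transcription factor Gata3, carry the interleukin-33 receptor ST2 (Il1rl1) and make interleukin-5 and interleukin-13, while group 3 cells (ILC3) and type 17 T cells use the nuclear receptor Rora, carry the interleukin-23 and interleukin-1 receptors (Il23r, Il1r1) and make interleukin-17 and interleukin-22. Gamma-delta T cells assemble their receptor from the Tcrg and Trd genes in place of the alpha and beta chains, often lack CD4 and CD8, and are a known source of interleukin-17 in mouse tumors. On GRCm38, Il1rl1 lies on chromosome 1 at 40429570 to 40465415 (plus strand), Il1r1 beside it at 40225080 to 40317257 on chromosome 1 (plus), Il23r on chromosome 6 at 67422932 to 67491855 (minus) and Il7r on chromosome 15 at 9505788 to 9530176 (minus). The constant genes Trdc (chromosome 14, 54142851 to 54148868) and Trac (chromosome 14, 54220521 to 54224206) lie in 1 locus on the plus strand.

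Cd4 was detected in 10 of the 212 cells (4.72%, interval 2.28 to 8.50) and Cd8a or Cd8b1 in 5 (2.36%, 0.770 to 5.42), so that 15 cells had a UMI of any of the 3 coreceptor genes. In cluster 10, which had the most Cd4 of the lymphoid clusters, 65.1% of cells had a Cd4 UMI (median 2519 UMIs per cell), and in cluster 3 88.2% had a UMI of a Cd8 gene (median 2823). Every cell was also thinned to 1000 UMIs, which left out 49 of the 212 cells. The Cd4 share was then 4.29% in cluster 23 and 41.5% in cluster 10. Clusters 1, 3 and 13, with many Cd8 cells, had 1.31% to 3.05%, below cluster 23. Cluster 7, of like depth (median 1347 UMIs), had Cd4 in 8.29% of cells (6.48% thinned), and cluster 8 (median 1375.5) in 23.9% (15.7% thinned). The low Cd4 share alone thus does not set cluster 23 apart from cluster 7, where the Cd8 genes were found in 34.7% of cells. In macrophage cluster 2, taken as background, the shares were 0.0949% for Cd4 and 0.348% for the Cd8 genes (median 3881 UMIs), so that cluster 23 was low in coreceptor transcripts but above the background. The CD3 chains, which carry the T cell receptor signal, were present in part of the cells. A UMI of Cd3d, Cd3e or Cd3g was found in 113 cells (53.3%, 46.3 to 60.2), between the 11.6% of cluster 24, which held natural killer (NK) genes, and the 82.4% to 95.8% of the other lymphoid clusters; macrophage cluster 2 had 1.02%. After thinning the share was 54.0%.

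All 8 listed genes of the T cell receptor complex reached 100 CPM in cluster 23, where 7.6% of the 21070 genes detected in the 8 clusters did, and none was highest there. Cd3e stood at 447 CPM, Cd3d at 351, Cd3g at 478, the adaptor Lat at 239, the alpha chain constant gene Trac at 186 and the beta chain genes Trbc1 and Trbc2 at 192 and 301. Across the 19 tumors with at least 5 cluster 23 cells, Cd3e ran from 0 to 1171 CPM with a median of 424, and 18 of them had a UMI.

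The gamma-delta list stood out less by level than by order. Of its 12 genes, 11 were higher in cluster 23 than in each of the other 7 lymphoid clusters and 8 were at least 2-fold over the highest of them with 20 CPM or more, where 19.7% and 1.48% of those 21070 genes did so; since these cells were clustered on their expression, neither count is a test. Summed over the list, cluster 23 had 819 CPM and the others 6.85 to 160. The scavenger receptor family genes 5830411N06Rik (177 CPM, 22.3-fold over the next cluster, 1 CPM added to both) and Cd163l1 (52.7, 9.39-fold), the kinase Blk (52.7, 35.6-fold) and the transcription factor Sox13 (31.0, where the next cluster had 0.527) were the members of largest ratio. Of the receptor genes, Tcrg-C1 had 149 CPM (7.20-fold over cluster 7) and Tcrg-C4 93.1 (2.78-fold), whereas Trdc, the constant gene that every delta chain needs, had 68.2 CPM beside 63.2 in cluster 24 and came from 13 cells (6.13%, interval 3.31 to 10.3). A UMI of any Tcrg constant gene or Trdc was found in 62 cells (29.2%), and Trac was found in 36 cells. Of the 13 cells with Trdc 1 also had Trac. Gamma transcripts are known from cells that do not carry the gamma-delta receptor, so these shares do not count receptor-bearing cells.

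Of the 13 type 17 genes, 12 were highest in cluster 23 and 10 at least 2-fold over the next cluster with 20 CPM or more. Over the 21070 genes these shares were 19.7% and 1.48%. Il23r had 285 CPM against 15.8 in cluster 10 (17.1-fold), and Il1r1 had 217 against 11.1 (18.1-fold). Il23r was seen in 42 cells (19.8%) and in at most 2.88% of any other lymphoid cluster, and 37.4% of all its UMIs in the 93126 cells lay in cluster 23, with 39.0% in cluster 11. The rest of the program included Ramp1 (471 CPM, 2.83-fold), a subunit of the calcitonin gene-related peptide receptor, the membrane proteins Tmem176a (385, 4.52-fold) and Tmem176b (434, 6.46-fold), and Rora (794, 1.17-fold). The cytokines of the program came from few cells: Il17a had 48 UMIs in 11 cells of 10 tumors, Il17f 14 UMIs in 5 cells and Il22 16 UMIs in 3 cells. Even so, 44.4% of all Il17a UMIs and 80.0% of the 20 Il22 UMIs in the series lay in cluster 23, with a further 39.8% of Il17a in cluster 10. The transcription factor Maf went the other way, at 264 CPM beside 539 in cluster 8.

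The ILC2 list was split. Il1rl1 had 546 CPM against 58.1 in cluster 8 (9.26-fold) and was seen in 68 cells (32.1%, 25.8 to 38.8), in 0.124% to 11.7% of the other lymphoid clusters and in 0.221% of macrophage cluster 2. Gata3 had 338 CPM (2.74-fold over cluster 10). The transcription factor Hlf (105 CPM, 6.14-fold), the nuclear receptor Pparg (55.8, 3.01-fold), the interleukin-25 receptor Il17rb (43.4, 21.6-fold) and the interleukin-9 receptor Il9r (31.0, 2.66-fold) followed. In all, 7 of 16 members were at least 2-fold over the next cluster with 20 CPM or more (beside 1.48% of the 21070 genes). Others were not: Klrg1 had 37.2 CPM beside 221 in cluster 8, the type 2 cytokine genes Il13 and Il5 had 74.4 and 34.1 beside 341 and 41.1 in cluster 10, and Ptgdr2 and Rxrg were at 0, which allows up to 9.31 CPM. Il1rl1 was also not confined to these cells, since 34.5% of its UMIs lay in cluster 20.

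The remaining lymphoid lists gave mixed values. The 13 NK and ILC1 genes summed to 171 CPM against 307 to 6655 elsewhere in the lymphoid clusters, with Ncr1, Eomes, Klra4 and Klra8 at 0 and Tbx21 at 15.5 CPM. Of the 10 ILC3 genes 7 were highest in cluster 23 and 5 at least 2-fold over the next cluster with 20 CPM or more. Over the 21070 genes these shares were 19.7% and 1.48%. The stem cell factor receptor Kit (133 CPM, 2.83-fold) and lymphotoxin beta (Ltb, 751, 1.31-fold) were high, but Ncr1 was at 0. The list shares members such as Il22, Il23r, Il1r1 and Ccr6 with the type 17 list. The regulatory T cell factor Foxp3 had 1 UMI and Il10 none. Zbtb16, the factor PLZF of innate-like lymphocytes, had 168 CPM (8.98-fold), while the invariant NKT cell segment Trav11 was at 0 and Klrb1c had 1 UMI. The lymphoid genes Il7r (1489 CPM, 4.73-fold over cluster 7, in 168 cells of 43 tumors), Id2 (503) and Thy1 (385) were present, but of the 8 genes of that list 5, among them Thy1 and Ptprc (617 CPM), which encodes CD45, were lowest of the 8 clusters in cluster 23 and 2 were highest. Of 979 genes with at least 100 CPM in each other lymphoid cluster, 366 were below the lowest of them in cluster 23. Il7r had a UMI in all 19 tumors with 5 or more cells, from 489 to 3122 CPM with a median of 1476.

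Markers of other tissues were near absent. Of the mast cell and basophil list 6 of 9 genes were at 0 and only Kit reached 100 CPM; the B cell genes Ms4a1 and Cd79a, all 5 fibroblast genes, 4 of 5 granulocyte genes, 5 of 7 dendritic cell genes and 2 of 4 MC38 genes were at 0. Of the plasma cell list, Sdc1 had 68.2 CPM (10.2-fold). The 7 macrophage genes, Lyz2 with 121 CPM first among them, summed to 254 CPM. This was above the 106 to 210 of the other lymphoid clusters and far from the 13028 of macrophage cluster 2. Of the 7, 6 were highest of the 8 lymphoid clusters in cluster 23, where 19.7% of the 21070 genes were. The part of these macrophage genes in the results was not tested. No cell of cluster 23 had over 1% of its UMIs in them.

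**Figure D1:**
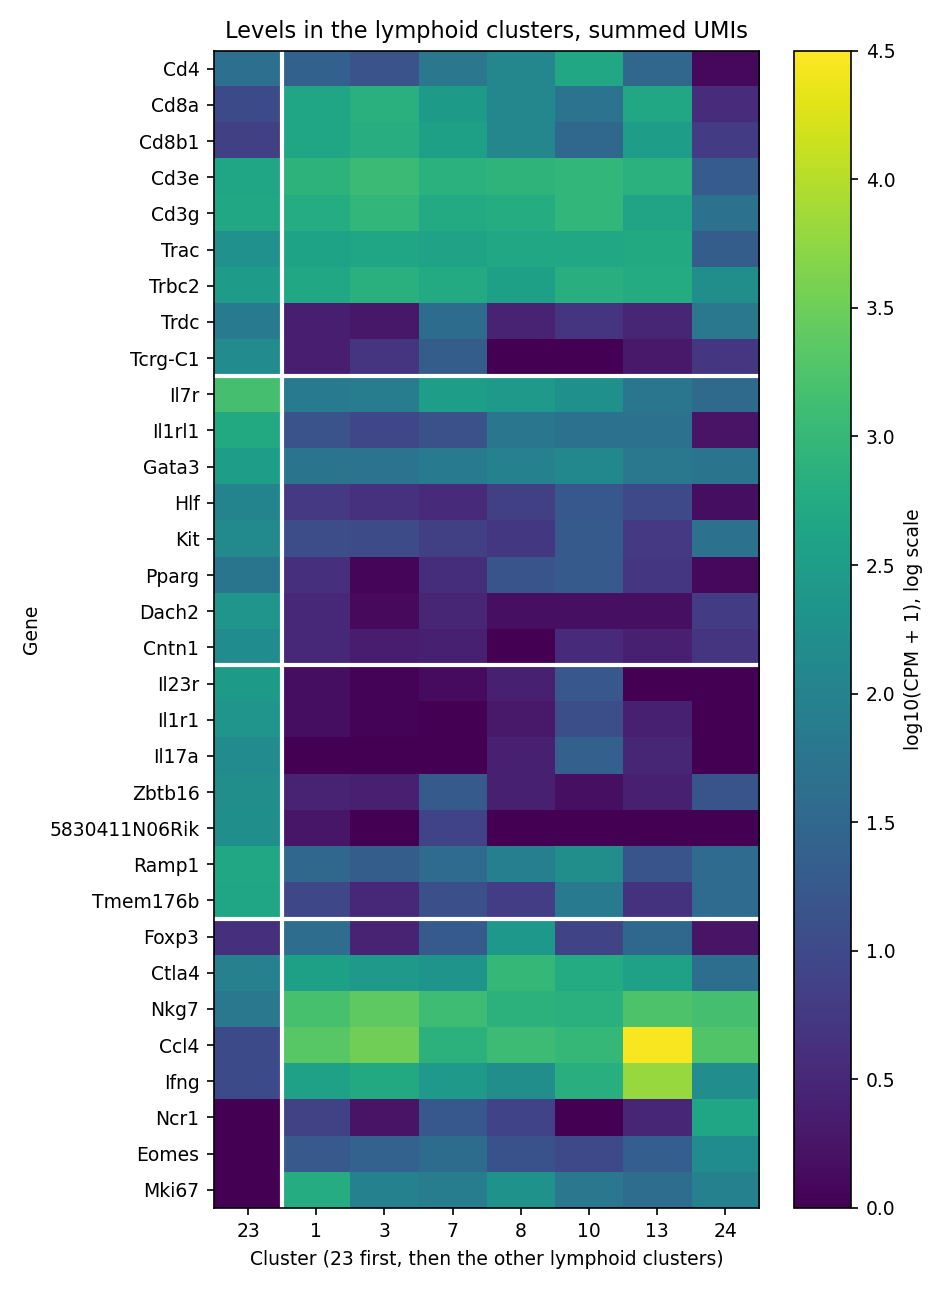
Level of 32 genes (rows) in the 8 lymphoid clusters (columns), drawn as log10(CPM + 1) of the summed counts of each cluster. Cluster 23 has the highest Il7r (1489 CPM), Il1rl1 (546) and Il23r (285) of the 8, low Cd4 (43.4) and Cd8a (9.31), and intermediate Cd3e (447).

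Il1rl1 and the type 17 receptor genes were detected in different cells. Of the 212 cells, 68 had a UMI of Il1rl1 and none of Il23r, Il1r1 or 5830411N06Rik, 69 had one of the latter 3 and none of Il1rl1, no cell had both, and 75 had neither. Il23r was found in 0 of 68 cells with Il1rl1, which allows a share of cells with a UMI of up to 4.41% (3 of 68; exact upper bound 5.28%), and in 42 of the 144 cells without it (29.2%, 21.9 to 37.3). Both sets were of like depth (medians of 1355 UMIs in the cells with Il1rl1 and 1562 in those with Il23r), at which a transcript that is present can be missed. Other genes of the lists were shared: Gata3 was found in 7 of the 42 cells with Il23r. Cells with Il1rl1 more often held Gata3 (44.1% against 23.6% of the cells without Il1rl1), Kit (27.9% against 6.94%) and Dach2 (35.3% against 6.25%), a homologue of the fly dachshund gene. They held a CD3 UMI in 21 cells (30.9%, 20.2 to 43.3), beside 63.9% of the cells without Il1rl1, and Trac in 5.

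Cells with Il23r carried the other set. Of the 42, 26 had Il1r1 (61.9%, beside 10.6% of the cells without Il23r), 21 had Zbtb16 (beside 10.0%) and 16 had 5830411N06Rik (38.1%, beside 5.88%). Of the 69 cells with Il23r, Il1r1 or 5830411N06Rik, 56 had a CD3 UMI (81.2%, 69.9 to 89.6), a share like that of the T cell clusters. Their receptor genes were mixed: 15 had Trac (21.7%), 10 had Trdc (14.5%) and 26 had Trdc or a Tcrg constant gene (37.7%). At this depth most cells had no UMI of either constant gene and could be assigned to neither lineage of T cell.

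Clustering the 212 cells alone gave 3 groups. The ILC2-like group held 84 cells (39.6%, 33.0 to 46.6) of 35 tumors, the type 17-like group 79 cells (37.3%, 30.7 to 44.2) of 31 tumors, and the third group, left unnamed, 49 cells (23.1%, 17.6 to 29.4) of 25 tumors. With 5 principal components in place of 10, 4 groups formed and the ILC2-like part was 19.3%, so that its size depends on this choice. Each of the 3 groups had cells of all 8 host strains, and median depths were 1341, 1370 and 1340 UMIs. The group levels that follow describe cells sorted by these same genes and carry no test. Counts of list genes that were highest in a group stand without the share over all genes, which was not counted.

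In the ILC2-like group Il1rl1 stood at 1274 CPM (59 of 84 cells), against 33.0 in the type 17-like group and 110 in the third. Gata3 was at 637 CPM, against 165 and 96.5. Dach2 was at 544, Pparg at 140, Il13 at 186 and Il5 at 85.4, each at 0 in both other groups. Il13 and Il5 each came from 7 cells of this group. A single cell held 15 of the 24 Il13 UMIs, and a single cell held 5 of the 11 Il5 UMIs. Of the 16 ILC2 genes 13 were highest there. The cytokine gene Csf2, which encodes GM-CSF, was at 233 CPM and the chemokine gene Ccl1 at 202, from 12 and 8 cells. CD3 transcripts were lowest in this group: Cd3e had 85.4 CPM in 6 cells, Cd3g 209.7 CPM in 17 cells and Trac 1 UMI, so that 1.19% of its cells had a Trac UMI against 25.3% and 30.6% in the others. Il23r and Il1r1 were at 0 in it, and its 10 leading genes were Dach2, Ctnna2, Il1rl1, Pparg, Plcl1, Inpp4b, Kcnq5, Pard3b, Cxcl2 and Rab27b.

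The type 17-like group had Il23r at 702 CPM (38 of 79 cells), Il1r1 at 504 (36 cells), Zbtb16 at 380 (30 cells) and 5830411N06Rik at 396. Rora (925 CPM, against 862 in the ILC2-like group) and Ramp1 (372, against 598) were not particular to it. The costimulatory receptor Icos was at 1098 CPM against 326 in the ILC2-like group, the interleukin-18 receptor Il18r1 at 950 against 101, and the growth factor receptor Igf1r at 842 against 38.8. Il17a had 306 CPM from 9 cells, and all 16 Il22 UMIs were here. Cd3e was at 586 CPM, Trac at 273 and Trdc at 124. Interferon and heat shock genes also led this group (Isg15 405 CPM, Hspa1b 173), and its median mitochondrial share was 2.15%, against 0.882% and 1.26%; their part in the grouping was not tested.

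The third group had the most CD3 (Cd3e 855 CPM in 34 of 49 cells, Cd3d 786) and Trac at 358 CPM in 15 cells. Its leading genes included Klrd1 (152 CPM), Ly6c2 (193), Nkg7 (234), the T cell receptor beta segment Trbv1 (124) and Ccl5 (345). The Klrd1 level rested on 11 UMIs in 6 cells, with 6 of the UMIs from the CC080F1 isotype tumor of pool 4. Of the 10 cytotoxic genes 5 were detected in the third group, and it held 11 of the 14 Il17f UMIs. It also held Trdv4 at 207 CPM, a gene with 73.9% of its UMIs in the series in cluster 24. Of the 8 T cell receptor complex genes 6 were highest in it (3873 CPM summed, against 2849 in the type 17-like and 955 in the ILC2-like group). The 12 gamma-delta genes were all detected in it and summed to 1199 CPM, against 1098 from 10 detected genes in the type 17-like and 342 from 6 in the ILC2-like group; Tcrg-C1 was at 248, 149 and 93.2 CPM in that order and Trdc at 82.7, 124 and 7.77, whereas Tcrg-C4 was highest in the ILC2-like group (110, 41.3 and 132). As its leading genes held no gene of the gamma-delta list, it was given no name.

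**Figure D2:**
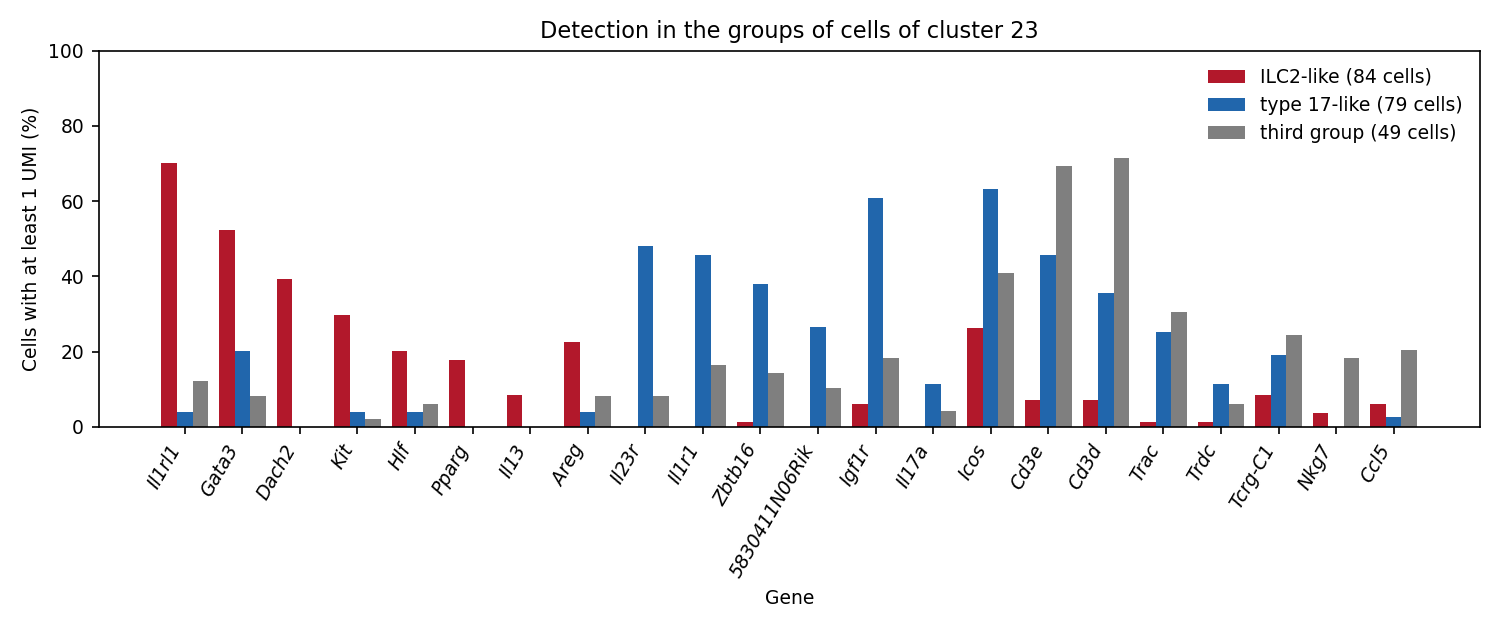
Percent of cells with a UMI of each of 22 genes in the ILC2-like (84 cells), type 17-like (79 cells) and unnamed (49 cells) groups within cluster 23. Il1rl1 was found in 59, 3 and 6 cells and Il23r in 0, 38 and 4. Il7r, which is not drawn, was found in 65, 66 and 37.

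Among receptors for cytokines, 9 of 18 reached 100 CPM in cluster 23 and 6 were at least 2-fold over the next cluster with 20 CPM or more. Over the 21070 genes detected in the 8 clusters these shares were 7.6% and 1.48%. Beside those above, Il18r1 had 537 CPM (1.59-fold), the common gamma chain Il2rg 481 and Il2ra 251. Il2rb, the chain shared by the interleukin-2 and interleukin-15 receptors, was low, at 149 CPM where the lowest other cluster had 340.5. Receptors that guide cells to tissue were present at levels near those of T cells, with Cxcr4 at 465 CPM (1.46-fold), the integrin chain Itgb7 at 354 (1.49-fold), Gpr183 at 264, Ccr2 at 245 and Cxcr6 at 236.

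Of the 20 cytokine genes 5 reached 100 CPM, where 7.6% of the 21070 genes did. These 5 were Areg (amphiregulin) with 288, Tgfb1 with 239, Il17a with 149, Tnf with 121 and Csf2 with 109. Ifng was at the floor, with 3 UMIs in 2 cells (9.31 CPM), where the next lowest lymphoid cluster had 162 and cluster 13 had 6314. The cytotoxic list was low throughout, with 0 of 10 genes at 100 CPM, Gzmb at 71.3 and Nkg7 at 62.0. Of the chemokines, Ccl4 had 9.31 CPM beside 769 to 28674 elsewhere, whereas Cxcl2 had 149 (6.98-fold, though 18956 in granulocytic cluster 16) and Cxcl10 205 (2.07-fold).

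Checkpoint genes were also modest. The aPD1 target Pdcd1 had 62.0 CPM in 16 cells, against 302 in cluster 3, Lag3 and Tigit had 2 and 1 UMIs, and Havcr2 none, while Icos had 655 CPM and the T cell factor Tox 335. Of the naive and central memory list, Klf2 (360 CPM) and Tcf7 (133) were near the highest other cluster. All 10 cell cycle genes were lowest of the 8 clusters in cluster 23, with Mki67 and Ccnb2 at 0. The share of all genes that were lowest there was not counted. Of the 979 genes with at least 100 CPM in each other lymphoid cluster, 366 were below the lowest of them in cluster 23. Its total of 322379 UMIs was the smallest of the 8 (1898846 in cluster 10), which makes counts of 0 more likely. Of the 10 immediate early and heat shock genes, 4 were at least 2-fold over the next cluster with 20 CPM or more (beside 1.48% of the 21070 genes). Among the 4 were Fos (3632 CPM, 3.37-fold) and Fosb (1390, 2.61-fold), subunits of the AP-1 transcription factor. No interferon response gene and no gene of the RNA quality list was 2-fold over the next cluster.

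Of 2125 genes with at least 50 CPM and a UMI in 10% of the cells, 102 were at least 2-fold over the highest other lymphoid cluster, and 62 with cells thinned to 1000 UMIs. The 20 of largest ratio were Dach2, Cntn1, Pde7b, Pard3, 5830411N06Rik, Cysltr1, Igf1r, Il1r1, Il23r, Pxdc1, Adam12, Lpcat2, Lmo4, Il1rl1, Zbtb16, Thsd7b, Tcrg-C1, Nav2, Krt83 and Tmem64. The adhesion molecule Cntn1 had 155 CPM (33.4-fold), the cAMP phosphodiesterase Pde7b 434 (31.9-fold), the polarity protein Pard3 298 (26.2-fold) and the cysteinyl leukotriene receptor Cysltr1 93.1 (20.1-fold). Of all Cntn1 UMIs in the series, 39.1% lay in cluster 23, while Pde7b was higher in cluster 19 (732 CPM). At the other end, of 979 genes with at least 100 CPM in each other cluster, 19 were at most 0.5 times the lowest of them. The 10 lowest were Ccl4, Ifng, Nkg7, Klrc1, Xcl1, Klrd1, Dusp2, Tuba1b, Gm19585 and Ybx3, of which the first 6 are genes of cytotoxic and NK cells.

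The members' levels varied widely between tumors, on few UMIs in each. In the B6 aPD1 tumor of pool 6, 1 Il1rl1 UMI was worth 198 CPM. The part of counting error in this spread was not tested. Over the 19 tumors with 5 or more cells, Il1rl1 ran from 0 to 1150 CPM with a median of 486 and 14 tumors had a UMI, and Il23r ran from 0 to 1464 with a median of 141 and 13 tumors had one. The 4 tumors with at least 10 cells show the mixture. In the CC002F1 aPD1 tumor of pool 3 Il1rl1 was at 799 CPM and Il23r at 57.04, in the CC007F1 isotype tumor of pool 6 at 486 and 0, in the CC080F1 isotype tumor of pool 4 at 675 and 278, and in the CC080F1 isotype tumor of pool 11 at 148 and 473. The first 3 had more Il1rl1 than Il23r UMIs and the last, which held 20 cells, had more Il23r.

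**Figure D3:**
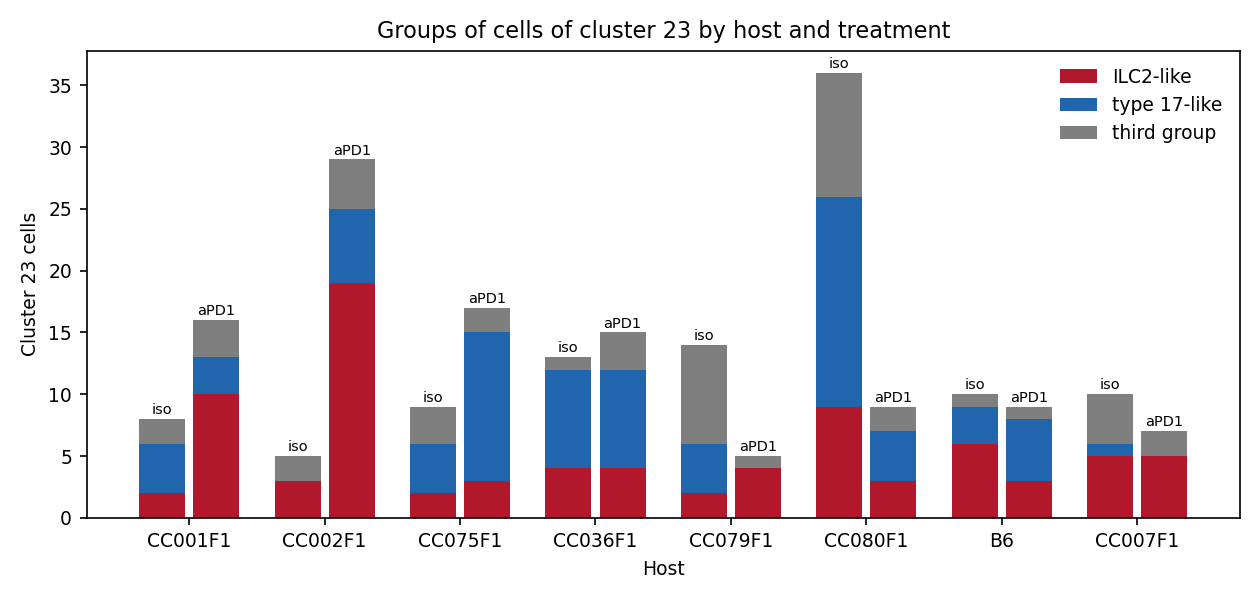
Number of cluster 23 cells (bar height) in each host strain and treatment, stacked by ILC2-like, type 17-like and unnamed group. The highest bar, CC080F1 isotype, has 36 cells (9, 17 and 10), and the CC002F1 aPD1 bar has 29 (19, 6 and 4).

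The next question was whether the size of the cluster differed by host or treatment. Cluster 23 made up a median of 0.183% of a tumor's cells, from 0 in 3 tumors to 1.89% in the CC007F1 aPD1 tumor of pool 6, where it was 1 of 53 cells, and a median of 1.67% of its lymphoid cells. Pooled, it was 107 of 47417 aPD1 cells (0.226%, 0.185 to 0.273) and 105 of 45709 isotype cells (0.230%, 0.188 to 0.278). By host, median shares rose from 0.104% in CC079F1 through 0.144% (CC001F1), 0.168% (B6), 0.172% (CC080F1), 0.201% (CC002F1), 0.207% (CC075F1) and 0.244% (CC036F1) to 0.440% in CC007F1. The ranges of all neighbours in that order overlapped, and the strains did not differ beyond the spread of tumors (Kruskal-Wallis H 8.03, permutation p = 0.337, adjusted p = 0.393).

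In responder hosts the share was higher with aPD1 (0.280% ± 0.158, SD, n = 10) than with isotype (0.126% ± 0.0725, n = 10). The isotype tumors ran from 0 to 0.253% with a median of 0.116%, the aPD1 tumors from 0.0373% to 0.582% with a median of 0.247%, and the groups overlapped. The rank-sum permutation p was 0.00834, and 0.117 after Benjamini-Hochberg adjustment over the 14 comparisons of the share. In non-responder hosts it was 0.167% ± 0.0962 with aPD1 and 0.363% ± 0.327 with isotype (n = 9 each, exact permutation p = 0.297, adjusted p = 0.393), and the difference of -0.196 was -0.114 without CC080F1 hosts. The change from isotype to aPD1 within pool and host averaged 0.154 percentage points in 10 responder pairs and -0.196 in 9 non-responder pairs, a difference between classes of 0.351 (exact permutation p = 0.0220, adjusted p = 0.117). Within pools 1 to 6 this difference was 0.328 and within pools 7 to 12 0.385. Class is a property of the host strain, with 3 strains in each class. The class comparisons of the share took tumors or pairs as units, so their p-values do not measure the spread between strains.

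No comparison of the share passed the adjusted threshold of 0.05. Responder and non-responder hosts differed by -0.237 percentage points with isotype and by 0.114 with aPD1 (exact permutation p = 0.113 and adjusted p = 0.197 in both). The aPD1 difference was 0.0697 without CC079F1 hosts, 0.174 without CC001F1 hosts, 0.186 in pools 1 to 6 and 0.0240 in pools 7 to 12, and the isotype difference was -0.142 in pools 1 to 6 and -0.361 in pools 7 to 12. The aPD1 and isotype tumors of all hosts differed by 0.0801 (permutation p = 0.178, adjusted p = 0.277, n = 24 each), a difference that turned to -0.00884 without CC007F1 hosts and to -0.00881 without tumors of under 500 cells. As a share of lymphoid cells, cluster 23 was 2.92% ± 2.78 with aPD1 and 1.65% ± 1.31 with isotype over all hosts (permutation p = 0.0250, adjusted p = 0.117), with the highest value, 14.3%, again in the CC007F1 tumor of 53 cells; the difference of 1.27 was 0.588 without CC007F1 hosts. In the sums of all tumors of a host, cluster 23 was 5 of 4075 isotype cells (0.123%) and 29 of 8234 aPD1 cells (0.352%) in CC002F1, and 36 of 7666 (0.470%) and 9 of 5993 (0.150%) in CC080F1.

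**Figure D4:**
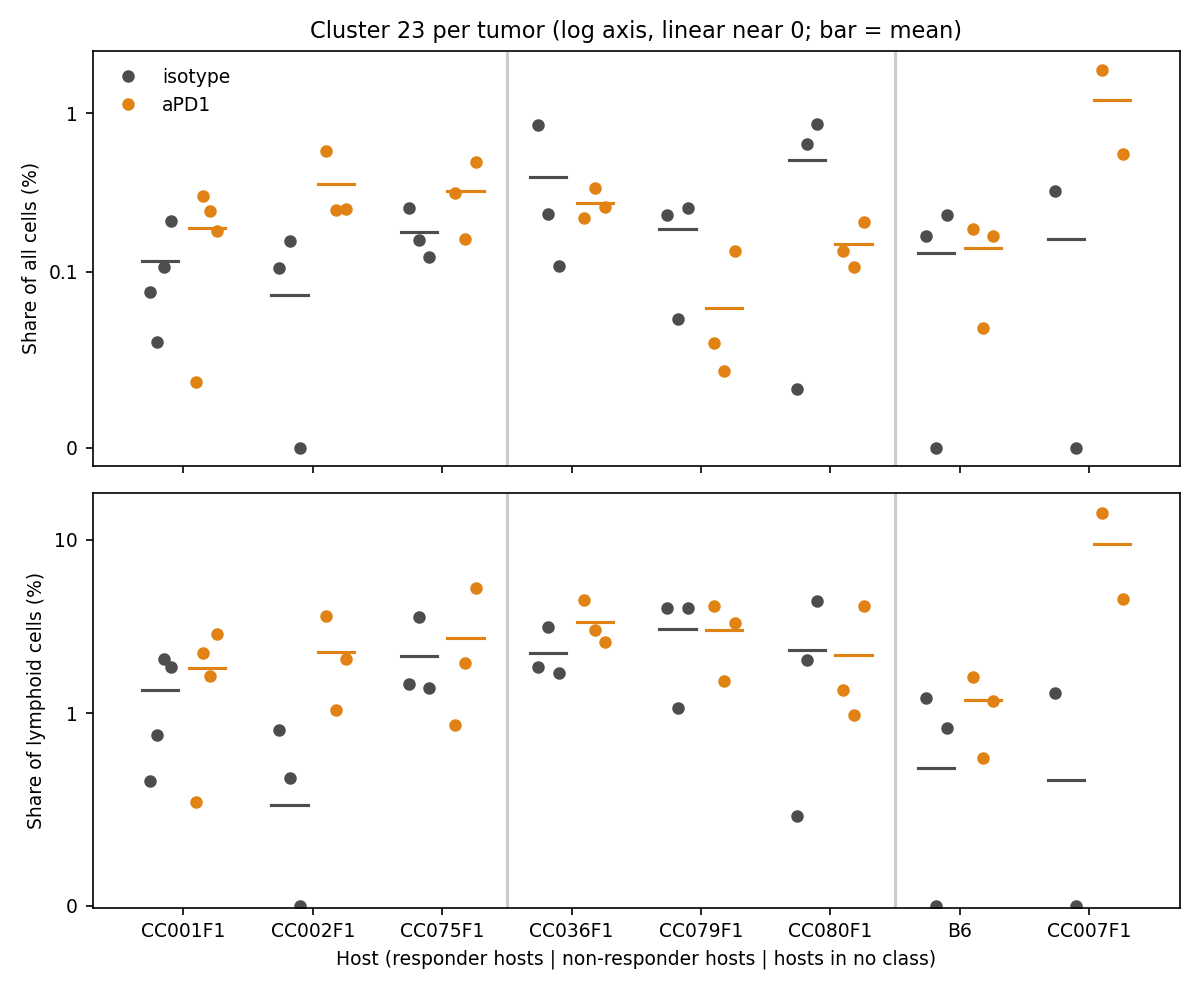
Cluster 23 as percent of all cells and of lymphoid cells in each of 48 tumors (points), by host and treatment, on an axis that is linear near 0 and logarithmic above; bars give the mean. Isotype and aPD1 tumors of the responder hosts overlap, with means of 0.126% and 0.280% of all cells.

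The ILC2-like group, and the other 2 groups as 1, were compared in the same way, and none of these 14 comparisons passed the adjusted threshold. The ILC2-like group was 51 of its 84 cells from aPD1 tumors, the type 17-like group 38 of 79 and the third 18 of 49. In responder hosts the ILC2-like share of all cells was 0.134% ± 0.0999 with aPD1 and 0.0389% ± 0.0472 with isotype (permutation p = 0.0189, n = 10 each, adjusted p = 0.221), a difference of 0.0952 that was 0.0584 without CC002F1 hosts. Among tumors with 5 or more cells, its part of cluster 23 was 45.7% ± 27.6 with aPD1 (n = 11) and 33.5% ± 25.1 with isotype (n = 8, exact permutation p = 0.361). These comparisons of groups were chosen after seeing the data.

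Gene levels within cluster 23 were compared between treatments and between classes on counts summed per tumor. With at least 10 cells per tumor the groups kept 0 and 0 tumors for treatment and 1 and 2 for class, so fits with at least 5 cells are given. Only B6, CC007F1 and CC036F1 hosts kept tumors of both treatments, so no responder host entered the treatment fit. Between its 4 aPD1 and 4 isotype tumors, 0 of 167 genes tested passed an adjusted p of 0.05 by edgeR. The percent called was 0, and 7 genes had an unadjusted p under 0.05. DESeq2 also called 0 (8 unadjusted). With all cells summed per host and treatment, 8 against 8 with the host as a block, 0 of 318 genes passed (percent called 0; 14 unadjusted; DESeq2 0, with 9 unadjusted). Of the listed genes 26 were among these 318; none passed, and none had an unadjusted p under 0.05, with a median log2 difference of 0.02 beside 0.01 over all 318.

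Between 7 responder and 7 non-responder tumors, 5 of 254 genes passed (1.97%), none of them a listed gene. Itm2b (log2 difference 3.46, adjusted p = 0.0208) and S100a6 (3.14, adjusted p = 0.0390) were higher in responder hosts, and Gm10260 (-4.93, adjusted p = 0.0208), mt-Nd5 (-2.06, adjusted p = 0.0464) and Mbnl1 (-2.04, adjusted p = 0.0464) were lower, by edgeR's quasi-likelihood test. These fitted differences, which adjust for treatment, were larger for some genes than those of the group means: Itm2b averaged 1734 CPM ± 814 in responder and 698 ± 515 in non-responder tumors (SD), and S100a6 3170.5 ± 1298 and 2598 ± 2236, with overlapping ranges in both. All 7 responder tumors were aPD1 tumors. The only non-responder aPD1 tumors among the 7 were those of CC036F1 hosts in pools 9 and 10. The class difference therefore set the 7 responder tumors against these aPD1 tumors of CC036F1 hosts, and the treatment term also rested on CC036F1 hosts. The non-responder isotype tumors entered only the treatment term and the estimate of spread. With 1 host or tumor left out the count ran from 0 to 10, and with the pool as a block 0 of 391 genes passed (21 unadjusted, lowest adjusted p = 0.478). With counts summed per host, 3 against 3 and with no treatment term, 1 of 628 genes passed (0.159%), again Gm10260 (log2 difference -6.56, SE 0.74, edgeR adjusted p = 0.000225). Of 49 listed genes among the 628 none passed and 4 had an unadjusted p under 0.05, where 20 of all 628 did (3.18%). Their median log2 difference was 0.05 beside 0.00 over all.

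Gm10260, annotated as protein coding on chromosome 13 at 97760072 to 97760632 (minus strand), was split by host in cluster 23 and in the rest of the cells. In cluster 23 it was at 0 CPM in CC001F1, CC075F1 and B6 hosts and at 21.6 in CC002F1, against 566 in CC036F1, 1096 in CC080F1, 1337 in CC079F1 and 1375 in CC007F1. In the cells of all other clusters it was at 3.61 to 8.94 CPM in the first 4 hosts and at 682 to 828.7 in the last 4. The 2 sets of hosts did not overlap in either.

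Il1rl1 summed per host was at 526.3, 841 and 988 CPM in CC001F1, CC002F1 and CC075F1 cells and at 327, 350 and 361 in CC036F1, CC079F1 and CC080F1 cells, so that the host sums of the classes did not overlap. By tumor they did: of the tumors with 5 or more cells, responder tumors had 0 to 1150 CPM, with 64.4 in the CC075F1 aPD1 tumor of pool 11, and non-responder tumors 0 to 899, the highest in the CC036F1 isotype tumor of pool 8. The log2 difference of the host sums of 1.17 (SE 0.38) had an edgeR p of 0.00832 and an adjusted p of 0.999 over the 628 genes, of which 0.159% passed. The host sums held 16 aPD1 and 8 isotype cluster 23 cells in CC001F1, 29 and 5 in CC002F1 and 17 and 9 in CC075F1. The numbers were 15 and 13 in CC036F1, 5 and 14 in CC079F1 and 9 and 36 in CC080F1. Class and treatment were thus mixed in these sums, and their parts in the Il1rl1 difference were not tested. How many of the 628 genes had host sums without overlap was not counted, but the lack of overlap was not particular to Il1rl1. Rgs2 had 296 to 727 CPM in responder and 95.5 to 218 in non-responder host sums. H2-Q6 had 346 to 474 and 95.5 to 202.

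Across the 48 tumors the cluster 23 share was lower where macrophages took more of the cells (Pearson r = -0.510, permutation p = 0.00132, adjusted p = 0.00660; Spearman rho = -0.533, p = 0.000170, adjusted p = 0.00170; adjusted over 5 relations with 2 coefficients each). Both are parts of 1 total. Without the 2 tumors farthest from the median macrophage share r was -0.470 (adjusted p = 0.00995). Within pools 1 to 6 r was -0.592 (permutation adjusted p = 0.00495) and within pools 7 to 12 -0.460 (permutation adjusted p = 0.0613). The Spearman coefficient in pools 7 to 12 was -0.337 (permutation adjusted p = 0.182). As a share of lymphoid cells, cluster 23 had an r of -0.0394 and a rho of 0.125 with macrophages. For cluster 24 with NK genes r was 0.257 (permutation p = 0.0771, adjusted p = 0.128) and rho 0.374 (p = 0.00957, adjusted p = 0.0319), and without the 2 tumors farthest from the median rho was 0.309 (adjusted p = 0.101), while without tumors of under 500 cells r was 0.709 and rho 0.521. The other 3 populations gave r of 0.234 and rho of 0.298 for granulocytic cluster 16 (permutation adjusted p = 0.104 and 0.0986), 0.00450 and 0.204 for cluster 8 with Foxp3 (adjusted p = 0.999 and 0.234), and -0.000137 and 0.163 for clusters 3 and 13 with Cd8a (adjusted p = 0.999 and 0.335). As a share of lymphoid cells, of which clusters 3 and 13 are also a part, the latter were -0.354 and -0.489 (permutation adjusted p = 0.0992 and 0.00470). For cluster 8 the share of all cells gave r of 0.665 and rho of 0.777 in pools 7 to 12 (permutation adjusted p = 0.0062 and 0.0003). In pools 1 to 6 these were -0.216 and 0.204 (permutation adjusted p = 0.418 for each).

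**Figure D5:**
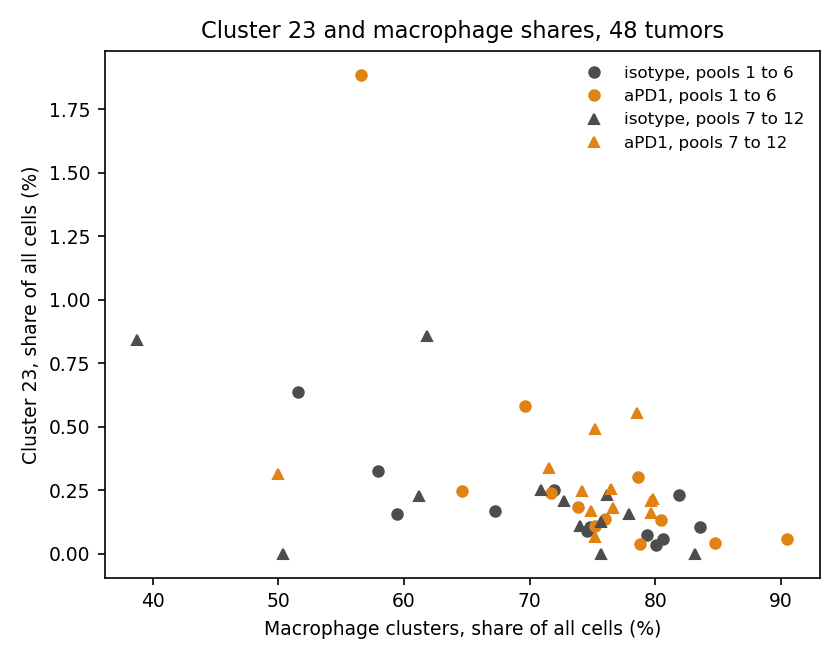
Cluster 23 share of all cells against the share of the 10 macrophage clusters, both in percent, for 48 tumors (points). Tumors with more macrophages have lower cluster 23 shares (r = -0.510); the point at 1.89% is the tumor of 53 cells.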

How the data were processed

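Tumor cells were profiled by 10x Genomics 5′ single-cell RNA sequencing in 12 hashtag-pooled libraries. The authors aligned reads with Cell Ranger to GRCm38 (GENCODE vM23), removed cells over 15% mitochondrial or 45% ribosomal reads, clustered them with Seurat 5.0.1 and deposited raw UMI counts per gene and cell with cluster numbers. No doublet caller was run here.

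Counts were summed per cluster, group or tumor and scaled to CPM. Cells of cluster 23 were regrouped with scanpy 1.11.5 (1000 variable genes, 10 principal components, Leiden resolution 0.5). Shares were compared over tumors with two-sided rank-sum permutation tests (exact, or 100000 resamples), and genes with edgeR 4.0.16 (DESeq2 1.42.0 as an alternative), all with Benjamini-Hochberg adjustment. Isotype and aPD1 tumors of a host shared a pool by their labels (correlation of their deviations 0.239 over 24 pairs), and this pairing was used as a replicate block in an alternative. Nothing in the labels says that tumors of 1 host strain came from separate litters; 1 animal identifier stands on the CC080F1 isotype tumor of pool 3 and the CC080F1 aPD1 tumor of pool 4. On simulated counts, 4-fold changes were recovered in 100% of 200 genes (318 genes, treatment sums) and 90.5% (628 genes, class sums). The simulation changed all 200 genes at once, which eases the adjusted threshold, and gave every host the same mean. It therefore does not give the power of the fits above, in which few or no genes passed. Positions came from GENCODE vM21 on GRCm38.

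Named genes were list members with at least 100 CPM, or 2-fold over the highest other lymphoid cluster with 20 CPM, and defining members near 0; the 20 genes of largest ratio (50 CPM, 10% of cells); the 10 of lowest ratio (100 CPM in each other cluster); and genes that passed a test; some list members are not reported here. The members, lists and tests were chosen with earlier results of these data known. Response classes are the study's and are not in the labels. Hashtag sequences were not used.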

Additional observations from a re-analysis of the deposited data

Results flagged for a closer look

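Of 28 groups of tumors checked for a sample far from the others, 1 was marked, and chance marks about 1 in 20 groups. Among the 6 tumors of CC036F1 hosts, the isotype tumor of pool 8 had a cluster 23 share of 0.840% of all cells (7 of 833), and the next highest had 0.338%; the gap was 0.687 of the whole range.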

How the results depend on the processing

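The 14 comparisons of the share gave 222 values under 16 other settings, of which 2 had an adjusted p under 0.05: with a difference in means in place of ranks, the aPD1 difference in responder hosts (0.154) and the difference between classes (0.351) both reached an adjusted p of 0.0497. The test between classes took pairs, not host strains, as units. The aPD1 difference over all hosts turned to -0.00881 without tumors of under 500 cells and to -0.00884 without CC007F1 hosts (0.143 at most with 1 host left out). Of lymphoid cells, the difference in non-responder hosts turned to -0.103 without CC036F1 hosts and to -0.0598 in pools 1 to 6 (0.541 at most with 1 host left out). For the type 17-like and unnamed groups together, the class difference with aPD1 turned to -0.00979 without CC075F1 hosts, -0.00305 without CC079F1 hosts (0.0920 at most with 1 host left out) and -0.00268 in pools 7 to 12, and the aPD1 difference over all hosts to 0.00533 without CC080F1 hosts (-0.0537 at the lowest). The 5 genes between classes became 3 with library size alone, 2 with no filter, 0 with the pool as replicate block, 1 summed per host (DESeq2 1), and 0 to 10 with 1 host or tumor left out (0 without CC002F1 hosts or the CC036F1 aPD1 tumor of pool 9, 10 without CC075F1 hosts); of these, leaving out the CC001F1 aPD1 tumor of pool 2 (4 genes) alone kept the count within 1.5 times. Pairing tumors by pool and host changed no other call: the share in responder hosts was higher with aPD1 in 8 of 10 pairs (adjusted permutation p = 0.107). The 102 genes at least 2-fold higher became 62 with cells thinned to 1000 UMIs, and the ILC2-like part became 19.3% with 5 principal components. The macrophage relation weakened to -0.0394 of lymphoid cells and -0.460 in pools 7 to 12; that with cluster 24 rose to 0.709 without tumors of under 500 cells and to 0.549 in pools 7 to 12, and that with cluster 8 to 0.665 in pools 7 to 12, but in pools 1 to 6 these were 0.0411 and -0.216, and of lymphoid cells -0.162 and -0.295; that with cluster 16 was 0.782 in pools 1 to 6 (adjusted permutation p = 0.0538). The cause of these changes was not tested. Gene fits with at least 10 or 20 cells, aPD1 genes with the pool block, and class genes without CC036F1 hosts could not be fitted. Tumors held a median of 4 cluster 23 cells, of a median of 1343 UMIs, which limits the precision of shares and of genes with few UMIs.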
